A study of Rattus norvegicus with 9 samples.

Results

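The 8 genes described here, Gpnmb, Trem2, Fabp4, Fabp5, Spp1, Cd9, Cd68 and Lpl, are known from lipid-associated and scar-associated macrophages of injured tissue. They were taken by symbol from the gene column of the deposited tables, where all 8 were found among 16730 genes listed in both tables, and all 8 passed the filter on low counts in each comparison. Trem2 reached the level of this filter in 0 of the 3 normal control livers and Fabp4 in 2 of them, so in the comparisons with the normal control group these 2 genes passed only through the group in which they were high, and no call is read from them there. The genes were picked with earlier results of these livers known. The 8 were chosen by name. Gpnmb, Fabp4 and Spp1 were selected on their read counts in the 3 groups because they stood among the largest changes of the model livers. Their values in the comparisons with the model group are therefore given as a description, with no test. In the comparison that leaves out the model group, p-values of Gpnmb and Spp1 also rest on livers used in this choice and are a description.

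Macrophages that meet dying cells and lipid debris switch on a programme in which the receptor Trem2 senses lipids, lysosomal proteins such as Gpnmb and Cd68 rise with the load of engulfed material, and Fabp4, Fabp5 and Lpl move fatty acids. In fibrotic liver, cells of this kind gather along the scar next to collagen-producing stellate cells, and the secreted protein osteopontin, encoded by Spp1, is one of their marks. Several of the genes are also made by other cells. Spp1 and Cd9 are active in bile duct cells, Lpl and Fabp4 in adipocytes and Fabp4 in capillary endothelium, while Cd68 is a general macrophage gene found in resting Kupffer cells.

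RNA was sequenced from whole livers of 9 male Sprague-Dawley rats, 3 in each group. The normal control group received saline. The model group and the TA group both received carbon tetrachloride (CCl4), a hepatotoxin used to cause fibrosis, by gavage at 2 ml/kg for 9 weeks, and the TA group was then treated for 6 weeks with tormentic acid (TA), a plant triterpenoid, at 3 mg/kg. The labels do not carry the dose, which comes from the design text of the series, and ages were not given in the sources used here. The model is a chemical injury of a whole organ, and the samples hold all liver cells together. In such samples fewer cells of a type and less RNA per cell cannot be told apart.

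Counted reads per liver numbered from 13156735 to 18090405. The first model rat stood apart from the other livers. The 50 genes with most reads took 27.9% of its reads and 40.4% to 45.7% in the other 8 livers, and the summed level of 10 hepatocyte markers was 31420 CPM (reads of a gene scaled to a common library size) in it, against 91180 and 111215 CPM in the other model livers and 128483 to 159007 CPM in the normal control livers. Values of the 8 genes and counts of gene lists that use the model group are therefore given with and without this rat. CPM values are scaled by the TMM method, which sets the level of most genes equal between livers. Scaling by library totals alone moved the median log2 fold change of all genes from 0.02 to 0.65 in Model VS Normal, from 0.00 to -0.48 in TA VS Model and from -0.01 to 0.18 in TA VS Normal. No fold change of the 8 genes changed direction under this scaling.

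Promoter sequences are shown for members of the set because these genes were high together in the same livers, so the letters around their starts can be read side by side. RefSeq entries of assembly GRCr8 covering 250 bases before and 50 bases after the gene start of the promoter table were matched for 5 of the 8 genes by symbol. Fabp4, Fabp5 and Lpl were not matched. For Gpnmb and Cd68 this start is the outer end of the gene in the RefSeq gene table, while it lies 18 bases inside the gene for Trem2, 105 for Cd9 and 891 for Spp1, so the window of Spp1 lies within the gene as that table gives it. Each sequence runs 5′ to 3′ along the strand of its gene, and capitals mark letters that matched any of the 4 motifs searched on both strands.
Gpnmb, chr4:79340878-79341177, plus strand: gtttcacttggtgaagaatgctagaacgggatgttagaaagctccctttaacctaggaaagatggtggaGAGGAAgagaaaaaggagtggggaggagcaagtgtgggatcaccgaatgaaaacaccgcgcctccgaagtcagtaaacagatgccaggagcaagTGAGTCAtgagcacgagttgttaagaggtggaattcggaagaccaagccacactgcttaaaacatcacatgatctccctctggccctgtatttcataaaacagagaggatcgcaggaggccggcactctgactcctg
Trem2, chr9:20151730-20152029, minus strand: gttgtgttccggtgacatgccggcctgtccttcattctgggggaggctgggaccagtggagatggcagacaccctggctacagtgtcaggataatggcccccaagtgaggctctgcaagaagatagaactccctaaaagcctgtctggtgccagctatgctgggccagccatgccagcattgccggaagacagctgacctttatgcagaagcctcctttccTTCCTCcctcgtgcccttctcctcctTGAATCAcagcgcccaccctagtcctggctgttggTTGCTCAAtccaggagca
Spp1, chr14:5619755-5620054, minus strand: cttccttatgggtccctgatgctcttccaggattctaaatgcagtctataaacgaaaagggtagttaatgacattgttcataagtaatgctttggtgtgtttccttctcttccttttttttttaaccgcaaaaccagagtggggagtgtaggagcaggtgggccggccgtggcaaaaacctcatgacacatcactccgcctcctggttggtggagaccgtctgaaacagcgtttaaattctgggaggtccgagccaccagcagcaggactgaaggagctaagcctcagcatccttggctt
Cd9, chr4:159975309-159975608, minus strand: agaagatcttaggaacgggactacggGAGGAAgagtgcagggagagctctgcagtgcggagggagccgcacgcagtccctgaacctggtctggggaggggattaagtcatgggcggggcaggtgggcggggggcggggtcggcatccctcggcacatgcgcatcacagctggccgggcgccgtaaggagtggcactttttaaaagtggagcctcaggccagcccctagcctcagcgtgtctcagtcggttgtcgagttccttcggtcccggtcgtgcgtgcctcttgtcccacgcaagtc
Cd68, chr10:54882392-54882691, minus strand: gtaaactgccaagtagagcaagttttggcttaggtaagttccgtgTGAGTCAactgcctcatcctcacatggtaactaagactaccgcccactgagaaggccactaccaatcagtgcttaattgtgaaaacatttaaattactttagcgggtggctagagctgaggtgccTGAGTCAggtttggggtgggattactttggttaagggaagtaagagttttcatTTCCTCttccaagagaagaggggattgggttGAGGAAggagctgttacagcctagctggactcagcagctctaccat

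The AP-1 motif TGANTCA occurred in 3 of the 5 sequences. It began 87 bases before the start of Gpnmb, 3 bases before that of Trem2, and 205 and 80 bases before that of Cd68. Over all 33469 promoters of the same length, 7.33% held it. The PU.1 box GAGGAA, a short motif of the myeloid factor PU.1, was found in 4 of the 5 sequences, all but that of Spp1, and in 27.6% of all promoters. The C/EBP motif TTGCNNAA was found in Trem2 alone of the 5, starting 33 bases after that start, and in 10.6% of all promoters. The E-box CACGTG, a core bound by factors of the MITF and TFE family, matched none of the 5 sequences and 6.42% of all promoters. Other sequences that this family binds were not searched, so a lack of its sites cannot be read from this. None of the capitals of 1 motif overlapped those of another. These matches describe letters in a window of 300 bases and carry no measurement of binding.

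Trem2, the lipid-sensing receptor of the set, was close to absent from normal liver. The normal control livers held 0, 3 and 7 reads of Trem2, or 0, 0.193 and 0.587 CPM, and a count of 0 in the first of them allows a level of up to 0.249 CPM, for counting error only. The model livers held 2392, 120 and 105 reads, or 107, 7.89 and 7.42 CPM. The TA livers held 50, 24 and 82 reads, or 3.56, 2.03 and 6.11 CPM. The 3 groups did not overlap, with the model group highest, the TA group between and the normal control group lowest, and the other 2 model livers were still above all TA livers. The Model VS Normal log2 fold change of Trem2 was 7.29 ± 1.48 (SE, n = 3 per group), and 4.84 without the first model rat. Against the model group, the TA livers gave a log2 fold change of -3.39 ± 1.10 (edgeR adjusted p = 0.264), or -0.95 without the first model rat. Since the normal level rests on so few reads, the size of the fold change against it depends on the small count that the fit adds.

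Gpnmb, a membrane glycoprotein of lysosomes and melanosomes, was measured at far more reads. Normal control livers held 45, 98 and 20 reads, or 3.74, 6.31 and 1.68 CPM. Model livers held 25311, 592 and 943 reads, or 1133, 38.9 and 66.7 CPM, and TA livers 821, 285 and 655 reads, or 58.4, 24.1 and 48.8 CPM. All model and TA livers were above all normal control livers, while the second model rat lay within the range of the TA livers and the third just above it. Gpnmb had a log2 fold change of 6.72 for Model VS Normal, with 3.71 when the first model rat was left out, and of -3.24 for TA VS Model, with -0.26 when it was left out.

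Cd9, a tetraspanin of the cell surface that organizes partner proteins in the membrane, gave close values in normal liver, with 45, 49 and 49 reads, or 3.74, 3.15 and 4.11 CPM. The model livers held 1778, 932 and 264 reads, or 79.6, 61.3 and 18.7 CPM. The TA livers held 137, 56 and 179 reads, or 9.75, 4.74 and 13.3 CPM. The groups did not overlap in any of the 3 comparisons, and the third model rat was the lowest of its group. Cd9 rose in Model VS Normal by 3.87 ± 0.53 on the log2 scale (edgeR adjusted p = 0.0119) and by 3.44 without the first model rat. The TA VS Model log2 fold change of Cd9 was -2.52 ± 0.58 (edgeR adjusted p = 0.238), or -2.09 without that rat. Cd9 kept most of its difference without the first model rat, unlike Gpnmb.

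**Figure D1:**
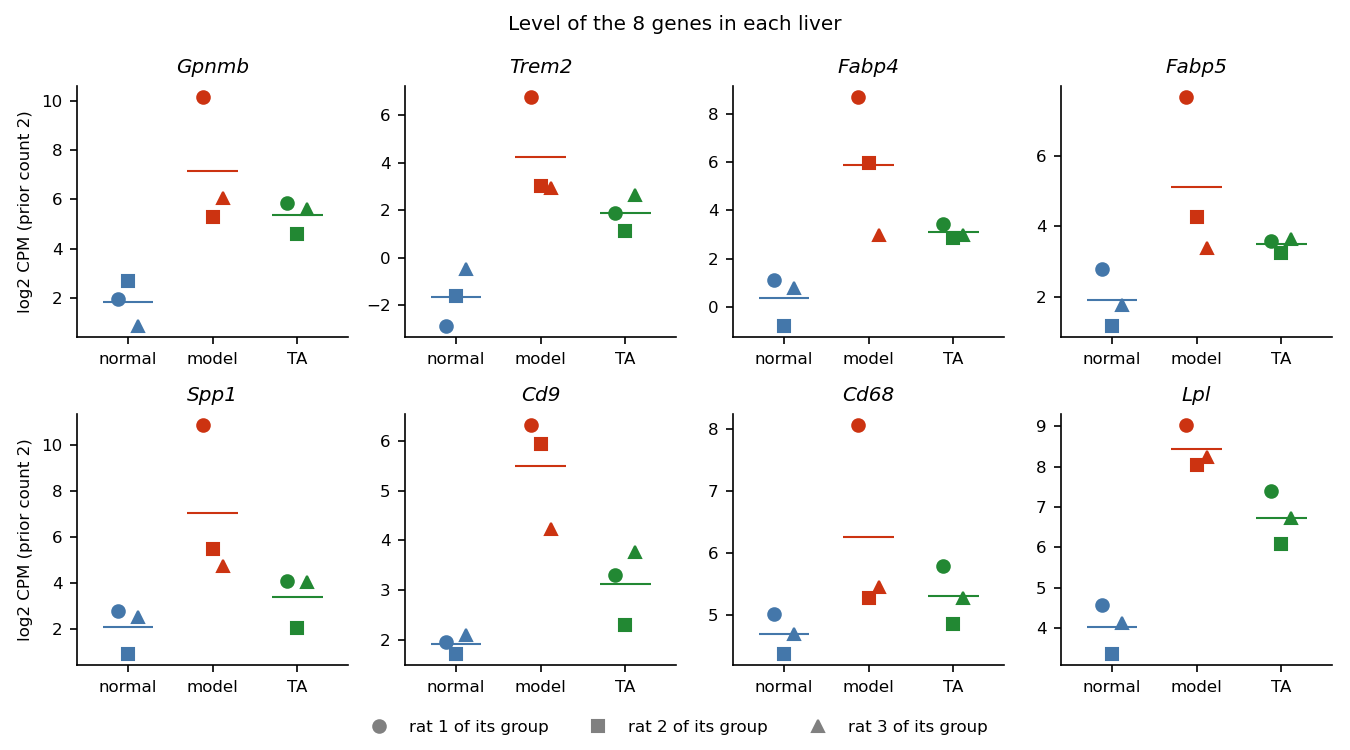
Level of each of the 8 genes in the 9 livers, as log2 CPM with a prior count of 2 on the y axis and the 3 groups on the x axis, with 1 point per liver and a line at the group mean. The first model rat (round red point) is the highest liver for all 8 genes, and for Trem2, Spp1, Cd9 and Lpl the other 2 model livers also lie above all TA livers.

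Lpl, lipoprotein lipase, frees fatty acids from circulating triglyceride and is low in healthy adult hepatocytes. It held 287, 159 and 207 reads in the normal control livers, or 23.8, 10.2 and 17.4 CPM. It held 11614, 4008 and 4242 reads in the model livers, or 520, 264 and 300 CPM, and 2359, 795 and 1411 reads in the TA livers, or 168, 67.2 and 105 CPM. The 3 groups were apart from each other in the order model, TA and normal, and the model livers agreed better for Lpl than for any other gene of the set. Lpl rose in Model VS Normal by 4.40 ± 0.48 on the log2 scale (edgeR adjusted p = 0.00871), and by 4.03 without the first model rat. Its TA VS Model log2 fold change was -1.67 ± 0.46 (edgeR adjusted p = 0.252), or -1.30 without that rat.

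Fabp4 carries fatty acids inside adipocytes, macrophages and capillary endothelium. The normal control livers held 25, 7 and 19 reads of Fabp4, or 2.08, 0.450 and 1.59 CPM. The model livers held 9108, 939 and 111 reads, or 408, 61.7 and 7.85 CPM, and the TA livers 150, 84 and 104 reads, or 10.7, 7.10 and 7.76 CPM. The third model rat fell among the TA livers for Fabp4, while the second was well above them. The TA livers were close to each other and above all normal control livers. Fabp4 had log2 fold changes of 6.88 for Model VS Normal and -4.23 for TA VS Model, or 4.69 and -2.01 when the first model rat was left out.

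Fabp5 is the related fatty acid carrier of skin and macrophages. Its normal control livers held 82, 33 and 39 reads, or 6.81, 2.12 and 3.27 CPM. Its model livers held 4476, 288 and 146 reads, or 200 CPM in the first, 18.9 and 10.3 CPM, and its TA livers 167, 111 and 165 reads, or 11.9, 9.39 and 12.3 CPM. Model and TA livers were above all normal control livers, and the third model rat lay within the TA range. The log2 fold change in Model VS Normal was 4.25 ± 1.16 (edgeR adjusted p = 0.0613), which missed the threshold, and it was 1.84 without the first model rat. For TA VS Model it was -2.78 ± 1.02 (edgeR adjusted p = 0.282), or -0.37 without that rat.

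Spp1 encodes osteopontin, a secreted phosphoprotein that binds integrins and Cd44. Normal control livers held 83, 28 and 67 reads, or 6.89, 1.80 and 5.62 CPM. Model livers held 41206, 687 and 378 reads, or 1845, 45.2 and 26.7 CPM, and TA livers held 239, 48 and 218 reads, or 17.0, 4.06 and 16.3 CPM. All model livers were above all TA livers, and the second TA rat fell within the normal range. Spp1 differed by 7.08 on the log2 scale for Model VS Normal and by -5.69 for TA VS Model. When the first model rat was left out these values were 2.92 and -1.51.

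Cd68, the lysosomal glycoprotein used as a general macrophage marker, was the highest of the 8 genes in normal liver and moved least. The normal control livers held 389, 322 and 308 reads, or 32.3, 20.7 and 25.8 CPM. The model livers held 5974, 591 and 616 reads, or 267, 38.9 and 43.5 CPM, and the TA livers 776, 341 and 518 reads, or 55.2, 28.8 and 38.6 CPM. The second and the third model rats lay within the range of the TA livers, and the second TA rat fell within the normal range. For Model VS Normal the log2 fold change was 2.16 ± 0.74 (edgeR adjusted p = 0.106) and 0.63 without the first model rat. For TA VS Model it was -1.52 ± 0.75 (edgeR adjusted p = 0.355), and without that rat no difference was left (0.0012, SE 0.30).

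The members differed in how far the first model rat stood above the other 2 model livers. Its CPM over their mean was 51.3 for Spp1, 21.5 for Gpnmb, 14.0 for Trem2, 13.7 for Fabp5, 11.7 for Fabp4 and 6.49 for Cd68, but 1.99 for Cd9 and 1.85 for Lpl. The median ratio over 12730 genes was 0.979, and Spp1 ranked at position 4 and Gpnmb at position 8 of these genes. Within the TA group the highest liver was above the lowest by 1.31 times for Fabp5, 1.50 times for Fabp4 and up to 4.19 times for Spp1, and the second TA rat was the lowest for all 8 genes.

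In Model VS Normal, all 8 genes were higher in every model liver than in every normal control liver. This describes Gpnmb, Fabp4 and Spp1 by how they were picked, and Trem2 by how it passed the filter. Of all 12730 genes tested, 20.9% were higher without overlap. The order also held for the second and the third model rats alone, where the share of all genes was not computed. As a description, the median log2 fold change was 5.56 over the 8 genes, 3.57 without the first model rat, and 0.02 over all genes. Calls were counted over the 4 genes that were neither picked for their change nor let through the filter by the model livers alone, namely Fabp5, Cd9, Cd68 and Lpl. At an edgeR adjusted p under 0.05, Cd9 and Lpl rose, 2 of the 4, with or without the first model rat, and 6.86% of all genes were higher. Under the rule of the study, which asks for p under 0.05 before adjustment and a change of more than 1 log2 unit, all 4 rose, and 16.6% of all genes did. Without the first model rat 3 of the 4 rose under this rule, the exception being Cd68, and 12.2% of all genes. The adjusted calls needed all 3 normal control livers. Without the first of them Lpl passed and Cd9 did not, among 51 genes called in all, and without the second or the third 0 genes of the whole table passed.

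In TA VS Model, Trem2, Cd9 and Lpl were lower in every TA liver than in every model liver. Of all 12781 genes, 12.6% were lower without overlap. The order of Trem2, Cd9 and Lpl also held without the first model rat, where the share of all genes was not computed. Spp1 was lower in the same way, which describes it by how it was picked. As a description, the median log2 fold change was -3.01 over the 8 genes and 0.00 over all genes. Without the first model rat the median of the 8 was -1.13. No gene of the whole table passed an edgeR adjusted p under 0.05 (0%), although 1999 had an unadjusted p under 0.05. DESeq2 called 541 genes, with Cd9 and Lpl among them, gave no adjusted p to 3 of the 8, and limma voom with quality weights called 169, with Cd9 among them. Of the 5 genes not picked for their change, Trem2, Fabp5, Cd9 and Lpl were lower under the rule of the study, 4 of 5, and 10.2% of all genes were. Cd9 and Lpl alone of these 5 passed the rule without the first model rat, where 4.96% of all genes were lower, and without the second TA rat, where 5.88% were.

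**Figure D2:**
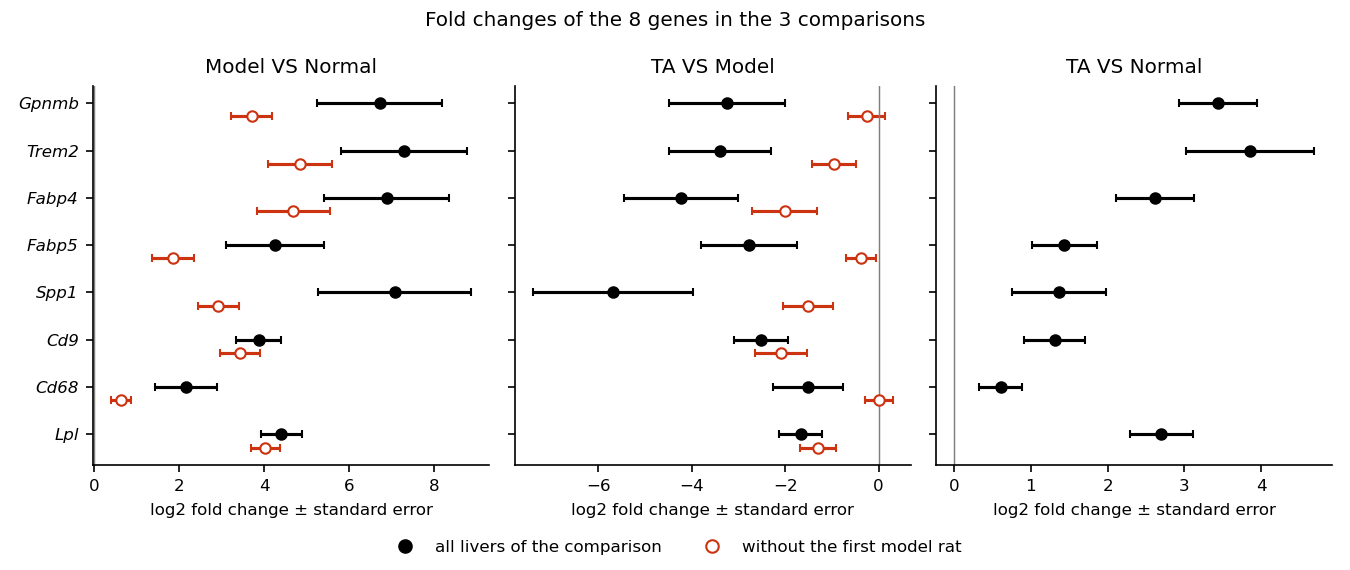
Log2 fold change (x axis) of each gene (y axis) in the 3 comparisons, with bars of 1 standard error, from all livers of the comparison (filled points) and without the first model rat (open points). The open points of Cd9 and Lpl stay close to the filled ones, while those of Gpnmb, Fabp5 and Cd68 in TA VS Model lie near 0, at -0.26, -0.37 and 0.0012.

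The TA livers were also compared with the normal control livers, a comparison that leaves out the model group but shares the normal control livers with Model VS Normal and the TA livers with TA VS Model. The log2 fold changes were 3.85 ± 0.83 for Trem2, 3.43 ± 0.51 for Gpnmb, 2.70 ± 0.41 for Lpl and 2.62 ± 0.51 for Fabp4. They were 1.44 ± 0.42 for Fabp5, 1.37 ± 0.61 for Spp1, 1.31 ± 0.39 for Cd9 and 0.61 ± 0.28 for Cd68. Trem2 and Fabp4 passed the filter here only through the TA livers and are left aside in what follows. Of the other 6 genes, Gpnmb, Lpl, Fabp5 and Cd9 were higher in every TA liver than in every normal control liver. Of all 12179 genes, 8.26% were higher without overlap. An exact permutation test gave p = 0.1, the smallest that 3 against 3 livers allow, for Gpnmb, Lpl, Fabp5 and Cd9. The exact p was 0.3 for Spp1 and 0.2 for Cd68. Of these 6 genes, Gpnmb alone rose at an edgeR adjusted p under 0.05 (adjusted p = 0.0431), where 0.230% of all genes did. Lpl came next with an edgeR adjusted p of 0.0511. Gpnmb and Spp1 were picked on read counts that include these livers, so their p-values here and below are a description. The edgeR adjusted p was 0.257 for Fabp5, 0.279 for Cd9, 0.543 for Spp1 and 0.559 for Cd68. Under the rule of the study Gpnmb, Lpl, Fabp5 and Cd9 rose, 4 of the 6, and 4.24% of all genes did.

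In this comparison livers with the same number deviated together. With the replicate number as a block, edgeR called Lpl (adjusted p = 0.00129) and Spp1 (adjusted p = 0.0282) beside Gpnmb, and 203 genes in all against 32 without the block. Over all 15 alternatives, the adjusted p ran from 4.03e-08 to 0.173 for Lpl, from 0.0282 to 1.00 for Spp1 and from 2.56e-09 to 0.433 for Gpnmb. The call of Gpnmb was lost without any 1 of the 3 normal control livers (edgeR adjusted p of 0.162, 0.0910 and 0.0817) and also when the first TA rat was left out (0.152). In these 4 fits the genes called over the whole table numbered 4, 1, 10 and 3.

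To set the programme against the general macrophage signal of the same liver, the reads of each gene were divided by those of Cd68. This ratio needs no scaling between livers. For Gpnmb it was 0.116, 0.304 and 0.0649 in the normal control livers, 4.24, 1.00 and 1.53 in the model livers and 1.06, 0.836 and 1.26 in the TA livers. For Lpl it was 0.738, 0.494 and 0.672 in the normal control livers, 1.94, 6.78 and 6.89 in the model livers and 3.04, 2.33 and 2.72 in the TA livers. Against Cd68, Lpl was thus lowest among the model livers in the first rat, whose Lpl level itself was highest.

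The ratio to Cd68 was higher in every model liver than in every normal control liver for Fabp5, Cd9 and Lpl, and 3.19% of all genes tested had ratios to Cd68 that were higher without overlap. In the TA livers it was above the normal range without overlap for Gpnmb, Lpl, Fabp5 and Cd9 but not for Spp1, and 2.50% of all genes were. The mean ratio of the TA group was above that of the normal control group by 6.51 times for Gpnmb, 4.25 for Lpl, 1.95 for Fabp5 and 1.61 for Cd9 (exact permutation test, p = 0.1 for each, the smallest possible). For Spp1 it was 1.68 times (exact p = 0.3). The lowest model liver and the highest TA liver were at 0.170 and 0.158 for Trem2, which held 105 and 82 reads in them. For Spp1, picked for its change, they were at 0.614 and 0.421. The other genes overlapped between these groups, and the share of all genes without such overlap was not computed. For Fabp4 the third model liver, at 0.180, was below all TA livers, which lay between 0.193 and 0.246.

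**Figure D3:**
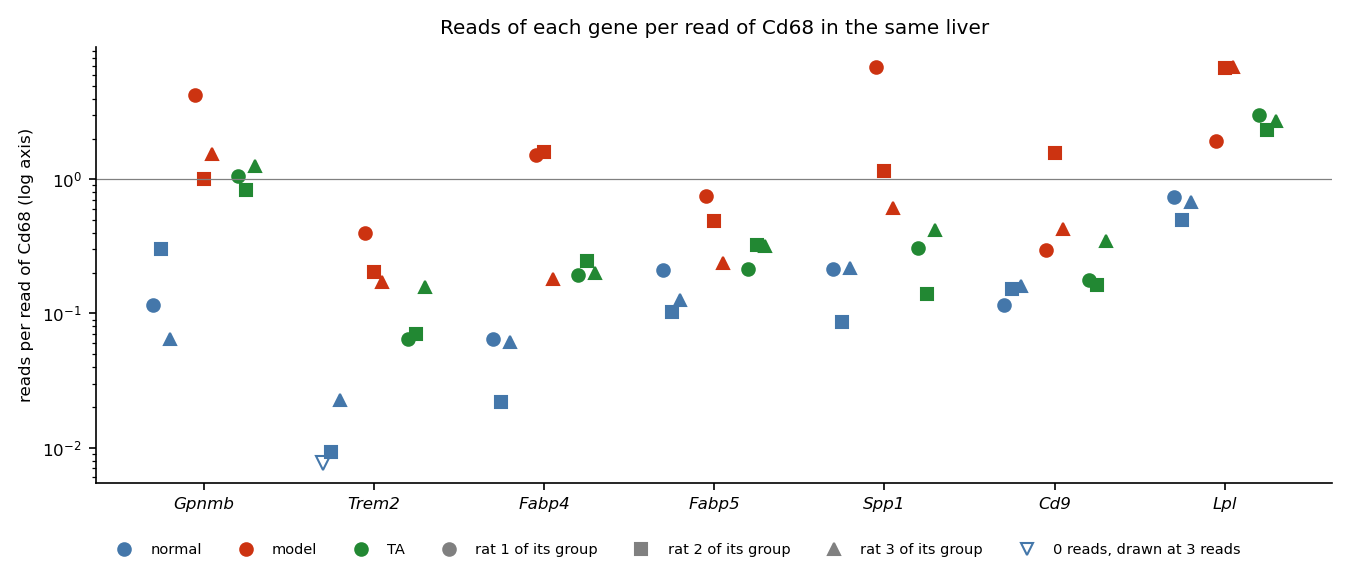
Reads of each gene per read of Cd68 in the same liver (y axis, log scale) for the 7 other genes (x axis), with 1 point per liver. The open triangle is the normal control liver with 0 reads of Trem2, drawn at the value that 3 reads would give. The TA points lie above all normal points for Gpnmb, Lpl, Fabp5 and Cd9, where 2.50% of all genes had such ratios. They also do for Trem2 and Fabp4, which passed the filter only through the TA livers, but not for Spp1.

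Levels between genes were compared on the FPKM scale, which divides by gene length. In the normal control group Cd68 was highest with a median of 17.0 FPKM and its range did not overlap that of the next gene, Lpl (3.86 FPKM). Fabp5 (3.69), Spp1 (3.02), Cd9 (2.58), Fabp4 (1.95) and Gpnmb (1.37) followed with ranges that overlapped each neighbour in this order, and Trem2 was last and apart from them at 0.143 FPKM. In the model group the order of the medians was Fabp4 (107.0 FPKM), Lpl (86.0), Cd9 (58.0), Cd68 (36.9), Spp1 (34.4), Gpnmb (30.4), Fabp5 (30.3) and Trem2 (7.88), and no neighbours in it were apart. In the TA group it was Cd68 (28.5 FPKM), Lpl (26.3), Gpnmb (19.4), Fabp5 (15.6), Fabp4 (10.7), Spp1 (9.81), Cd9 (7.94) and Trem2 (3.06), again with overlap of all neighbours. Cd68 was the highest of the 8 genes in 5 of the 9 livers, Lpl in 2, and Fabp4 and Spp1 in 1 each. Trem2 was the lowest in 8 livers and Cd9 in 1. Overlap of ranges over livers does not exclude an order kept within each liver. Trem2 was below Fabp5 in each model liver and below Cd9 in each TA liver.

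The genes whose profile over the 9 livers was most like that of each member were named by the root mean square difference of centred log2 CPM. This likeness is a description over 9 livers that share the first model rat. For Gpnmb the nearest was Col1a1, a chain of type I collagen, at 0.58 log2 units, followed by Mmp12, the macrophage elastase (0.79), and Fbln1, a matrix glycoprotein (0.79). Trem2 was nearest to Fblim1 (0.69), Loxl1, which cross-links elastin (1.00), and Col1a1 (1.01). For Fabp4 the nearest were Fblim1 (0.87), Col1a1 (0.92) and the galectin Lgals3 (0.92), and for Spp1 they were Lgals3 (0.87), Lgals1 (0.93) and Pla2g7 (1.03).

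Fabp5 was nearest to the galectins Lgals1 (0.37) and Lgals3 (0.41) and to Col16a1 (0.43). Cd9 was nearest to S100a11 (0.34), the tetraspanin Tspan8 (0.40) and Slc25a4 (0.43). Lpl was nearest to the matrix genes Mgp (0.34) and Eln, which encodes elastin (0.35), and to Cpxm2 (0.39). Among the genes near Cd68 were Slc7a8 (0.17) and Ptafr, the receptor for platelet activating factor (0.22). The members themselves were left out of these rankings. Between members, the closest profiles were those of Fabp5 and Cd68 (0.82) and of Cd9 and Lpl (0.85), and the farthest those of Trem2 and Cd68 (1.96). The pairs Fabp4 and Spp1 and Gpnmb and Trem2, at 0.99 each, were nearer to each other than the third gene named for Spp1 and for Trem2.

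Read counts of Col1a1 were 219, 170 and 87 in the normal control livers, 98977, 3518 and 3433 in the model livers and 2467, 1111 and 1122 in the TA livers. Mmp12 held 10, 15 and 2 reads, then 2204, 434 and 147, then 155, 46 and 89. Eln held 149, 116 and 139 reads, then 6830, 1849 and 1437, then 1010, 549 and 886. In all 3 genes the first model rat was highest and every TA liver was above every normal control liver, as for Gpnmb and Lpl. The TA VS Normal log2 fold change was 3.25 ± 0.42 for Col1a1 (edgeR adjusted p = 0.0236), 3.38 ± 0.62 for Mmp12 (edgeR adjusted p = 0.0845) and 2.52 ± 0.27 for Eln (edgeR adjusted p = 0.0163). These genes were named because their profiles over the same livers, TA and normal control livers included, were near those of Gpnmb or Lpl. The shared order of the livers was thus largely set by this choice, and these p-values are a description.

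Lists of genes around each member were described by the rule of the study, with counts beside the share of all genes given above. Under this rule 5.55% of all genes fell in Model VS Normal, 2.11% rose in TA VS Model and 1.02% were lower in TA VS Normal. When library totals replaced TMM the split of all genes moved from 2112 higher and 706 lower to 3738 and 221 in Model VS Normal, and from 270 and 1301 to 89 and 2358 in TA VS Model. The lists were chosen with earlier results of these livers known. In Model VS Normal, Krt7, Cldn4, Olr1, Lum and Vldlr reached the level of the filter in none of the normal control livers. They passed it only through the model livers, so their rises there are a description, though the list counts include them. Other list genes and TA VS Normal were not checked for this.

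Of 15 tested other genes of the scar macrophage signature, 12 rose in Model VS Normal (10 without the first model rat) and none fell, with a median log2 fold change of 2.50. Mmp12 rose by 6.09 ± 0.98 (4.82 without the first model rat) and Lgals3 by 4.87 ± 1.16 (2.47), and the chemokine Cxcl16 rose by 2.85 ± 0.27, or 2.75 when that rat was left out. The TA livers were lower than the model livers for 8 of 15, with or without the first model rat, among them Lgals1 at -3.57 ± 1.07 (-1.11 when it was left out) and Lgals3 at -3.44 ± 1.09 (-1.03). Against the normal control livers they were higher for 5 of 15, Mmp12 and Cxcl16 (1.53 ± 0.33) most, with Cd63, Lgals3 and Lgals1.

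Of 13 partners of Trem2, 5 rose in Model VS Normal, namely the adaptor Tyrobp (2.04 ± 0.60), Lat2 (1.57 ± 0.42), Vav1, Inpp5d and the kinase Syk. Without the first model rat 1 rose and 1 fell, and the values were 1.00 for Tyrobp, 1.41 for Lat2 and 0.50 for Syk. From model to TA livers 4 of 13 fell, with Tyrobp at -1.60 ± 0.61 and Syk at -1.20 ± 0.51 as the largest differences. When the first model rat was left out these were -0.56 and -0.36 and 0 fell, as when the second TA rat was left out. None of the 13 passed the rule in TA VS Normal, where no call is read from Trem2 itself. Apoe, a ligand of Trem2 that hepatocytes make in bulk, had a log2 fold change of -1.35 ± 0.91 in Model VS Normal and did not pass.

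Of 17 lipid handling genes of foamy macrophages, 5 rose in Model VS Normal and 2 fell, and the median was -0.07. The scavenger receptor Olr1 rose by 4.93 ± 0.55 (4.47 without the first model rat) and the oxysterol enzyme Ch25h by 2.98 ± 0.62 (2.44), while the nuclear receptors Rxra (-1.28 ± 0.47) and Nr1h3 (-1.18 ± 0.43) fell. Without the first model rat 4 rose and 0 fell. Olr1 (-2.66 ± 0.65) and Ch25h (-1.30 ± 0.48) fell in TA VS Model and Rxra rose (1.45 ± 0.48), with 1 in each direction without the first model rat, where Ch25h was at -0.76. Ch25h was the 1 gene of 16 that rose in TA VS Normal (1.65 ± 0.55). Plin2, the coat protein of lipid droplets, did not pass in any of the 3 comparisons, at -0.07, 0.12 and 0.01.

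Of 11 tested partners of Lpl, Vldlr, a receptor for triglyceride-rich particles, alone rose in Model VS Normal, by 4.46 ± 0.49, and 4 fell, Apoc2, the activator of Lpl, by 2.42 and Apoc1 by 2.32 on the log2 scale, with Apoc3 and Angptl4, both inhibitors of Lpl, while 6 did not pass. The numbers were the same without the first model rat, and 2 fell when the second normal control rat was left out. The apolipoproteins are hepatocyte products, and the part of the hepatocyte marker sum given above, which was 104219 to 172686 CPM in the TA livers, was not tested. Vldlr held 10, 6 and 7 reads in the normal control livers, 426, 185 and 118 in the model livers and 88, 63 and 37 in the TA livers. It fell in TA VS Model (-1.47 ± 0.44), and it rose in TA VS Normal (2.96 ± 0.50), where Apoc1 fell (-1.20 ± 0.35).

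Of 16 receptors and processing enzymes of osteopontin, 8 rose in Model VS Normal, 7 without the first model rat. Mmp12 and the integrin Itga8 (4.74 ± 0.41) rose most, and the receptor Cd44 rose by 3.43 ± 0.54 (2.77 without that rat). From model to TA livers 6 fell, Itgb6 (-2.83 ± 0.50) and Mmp12 (-2.68 ± 0.79) most, and 4 fell without the first model rat, where these were -2.99 and -1.42. Mmp12, Itga8 (3.05 ± 0.34) and Mmp2 (2.39 ± 0.39) were the 3 of 15 that rose in TA VS Normal.

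In the tetraspanin web around Cd9, 6 of 8 genes rose in Model VS Normal, Tspan3 (2.30 ± 0.43) and Cd63 (2.27 ± 0.53) most, and 4 did without the first model rat, where these were 1.67 and 1.60. Of these 8 genes 5 fell in TA VS Model, Cd53 (-1.50 ± 0.49) and Tspan3 (-1.35 ± 0.41) most, but 0 fell without the first model rat (-0.70 and -0.74) and 2 when the second TA rat was left out. Cd63 was the 1 gene that rose in TA VS Normal (1.51 ± 0.29). Of 25 lysosomal genes 7 rose in Model VS Normal, the cathepsin Ctsk (3.11 ± 0.81) and Lgmn (2.38 ± 0.71) most, with a median of 0.55. Without the first model rat 4 rose, with Ctsk at 1.64 and Lgmn at 1.01, and without the third normal control rat 3 did. Of the 25, 4 fell in TA VS Model, Ctsk (-2.00 ± 0.75) and Lgmn (-1.94 ± 0.72) most, and 0 without the first model rat (-0.52 and -0.57) or without the second TA rat. Cd63 and Ctsk (1.08 ± 0.33) rose in TA VS Normal.

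Of 8 genes of the MITF and TFE family and partners of Gpnmb, Cd44 and Mitf (1.28 ± 0.50) rose in Model VS Normal and fell in TA VS Model (-2.44 ± 0.50 and -1.37 ± 0.52), and without the first model rat 1 did in each, where Mitf was at 0.59 and -0.69. None of the 8 passed in TA VS Normal. None of 5 other fatty acid binding proteins passed in any comparison, and Fabp1, the carrier of hepatocytes, was at -1.63 ± 0.85 in Model VS Normal, unlike Fabp4 and Fabp5.

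Leaving out 1 liver other than the first model rat also moved some of these counts. It moved the shares of all genes that passed the rule as well. In Model VS Normal 13.3% to 18.8% of all genes rose and 4.17% to 10.9% fell. In TA VS Model 5.88% to 13.8% fell, and in TA VS Normal 3.13% to 4.86% rose. A change of a list count can follow these shares. In Model VS Normal the Trem2 partners that rose numbered 4 to 7, the lipid handling genes 4 to 7 risen and 0 to 4 fallen, the lysosomal genes 3 to 10, the osteopontin list 8 to 9, the tetraspanin web 5 to 6 and the scar macrophage genes 10 to 13. The Lpl partners that fell numbered 2 to 6. For TA VS Model the scar macrophage genes that fell numbered 7 to 10, the osteopontin list 4 to 6 and the lipid handling genes 1 to 4. For TA VS Normal the numbers that rose were 4 to 7 scar macrophage genes, 3 to 5 of the osteopontin list (5 without the first normal control rat), 1 to 4 lysosomal genes and 1 to 3 lipid handling genes (4 and 3 without the third TA rat), and 1 to 3 of the tetraspanin web.

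**Figure D4:**
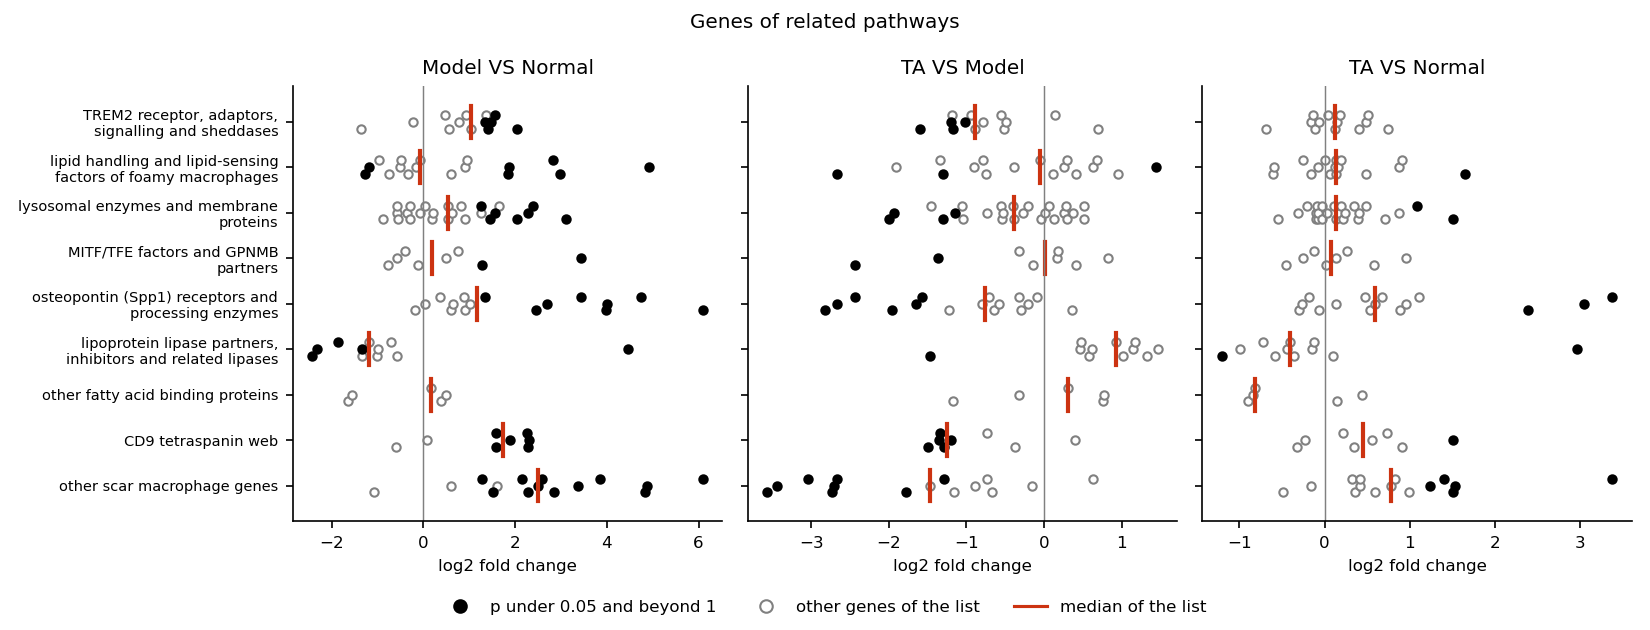
Log2 fold change (x axis) of the genes of 9 related lists (y axis) in the 3 comparisons, with filled points for genes that passed the rule of the study and a red line at the median of each list. In Model VS Normal the median is 2.50 for the other scar macrophage genes and -1.18 for the partners of lipoprotein lipase.

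Markers of whole cell types were summed in each liver to show what moved beside the 8 genes. The 8 genes together summed to 79.4, 45.0 and 60.1 CPM in the normal control livers, 4560, 536 and 481 CPM in the model livers and 334, 147 and 248 CPM in the TA livers. The sum of 12 general macrophage and myeloid markers was 499 to 670 CPM in the normal control livers, 1965, 710 and 666 CPM in the model livers and 539 to 961 CPM in the TA livers. In the second and the third model rats the macrophage sum was thus just above and within the normal range, while the sum of the 8 genes was above it, and in the first TA rat both sums were above it. In Model VS Normal 7 of the 12 rose, but 2 did without the first model rat, and also 2 when the second normal control rat was left out. In the TA livers 5 of the 12 were lower than in the model livers, and 0 were without the first model rat or without the second TA rat. None passed in TA VS Normal. Csf1r held 665, 569 and 502 reads in the normal control livers, 5425, 1113 and 765 in the model livers and 1365, 556 and 575 in the TA livers.

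Markers of resident Kupffer cells did not follow the 8 genes. Their sum was 297 to 432 CPM in the normal control livers, 296, 191 and 259 CPM in the model livers and 296 to 620 CPM in the TA livers. Of 8 tested in Model VS Normal, Spic rose (2.19 ± 0.62, and 1.44 without the first model rat), and the scavenger receptor Marco (-2.17 ± 0.60) and Cd5l (-1.14 ± 0.45) fell, and without the first model rat 1 rose and 4 fell. Clec4f, a lectin of Kupffer cells, rose in TA VS Model by 1.78 ± 0.73, and Spic fell by 1.77 on the log2 scale, and when that rat was left out 3 rose and 0 fell, with Clec4f at 1.30 and Spic at -1.04. Monocyte and neutrophil markers summed to 13.4 to 33.7 CPM in the normal control livers, 102, 38.5 and 67.9 CPM in the model livers and 22.5 to 38.0 CPM in the TA livers, with S100a8 and S100a9 higher in Model VS Normal.

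Stellate cell and myofibroblast markers moved with the 8 genes. Their sum was 208 to 301 CPM in the normal control livers, 12652, 1204 and 1479 CPM in the model livers and 691 to 1177 CPM in the TA livers, so that the 3 groups were apart in the same order. Of 9 tested, 8 rose in Model VS Normal with or without the first model rat, Lum (8.09 ± 2.30, and 2.58 without that rat) and Col1a1 (7.08 ± 1.43, and 4.27) most. Of the 9, 8 fell in TA VS Model, but 0 did without the first model rat and 1 when the second TA rat was left out. Of 8 tested in TA VS Normal, 5 rose.

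Cholangiocyte markers summed to 38.4 to 59.7 CPM in the normal control livers, 213, 235 and 154 CPM in the model livers and 62.7 to 68.2 CPM in the TA livers. Here the second model rat was above the first. Cd9 was at 79.6 CPM in the first model rat and 61.3 CPM in the second, and Spp1 at 1845 and 45.2 CPM. Of 9 tested, 8 rose in Model VS Normal and 8 fell in TA VS Model, both with and without the first model rat. As a description, since both passed the filter only through the model livers, Krt7 rose by 7.46 ± 0.87 and Cldn4 by 5.27 ± 0.55. When that rat was left out these were 6.68 and 4.93. Krt7 held 1, 0 and 2 reads in the normal control livers. It held 599, 148 and 115 in the model livers and 43, 8 and 2 in the TA livers. Of 8 tested in TA VS Normal, 5 rose, and 2 without the second normal control rat. Since Spp1 and Cd9 are also genes of bile duct cells, these values stand beside theirs, and their part in the levels of Spp1 and Cd9 was not tested.

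Adipocyte markers did not rise with Fabp4 and Lpl. Their sum was 129 to 170 CPM in the normal control livers, 96.7, 69.2 and 90.0 CPM in the model livers and 141 to 162 CPM in the TA livers, and the defining gene Adipoq held 0 to 4 reads in each liver. Cidec, the 1 marker of 3 tested that passed, fell in Model VS Normal (-1.47 ± 0.40) and rose in TA VS Model (1.41 ± 0.42). Endothelial markers summed to 125 to 159 CPM in the normal control livers, 370, 226 and 130 CPM in the model livers and 135 to 205 CPM in the TA livers, with 5 of 8 higher and 1 lower in Model VS Normal and 2 higher without the first model rat. Lymphocyte markers summed to 23.5 to 36.2, then 110, 47.6 and 55.2, then 26.5 to 50.2 CPM, and 1 of 8, Cd4 (1.65 ± 0.44, and 1.05 without the first model rat), rose in Model VS Normal, against 3 without that rat. The part of any of these cell types in the levels of the 8 genes was not tested.

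**Figure D5:**
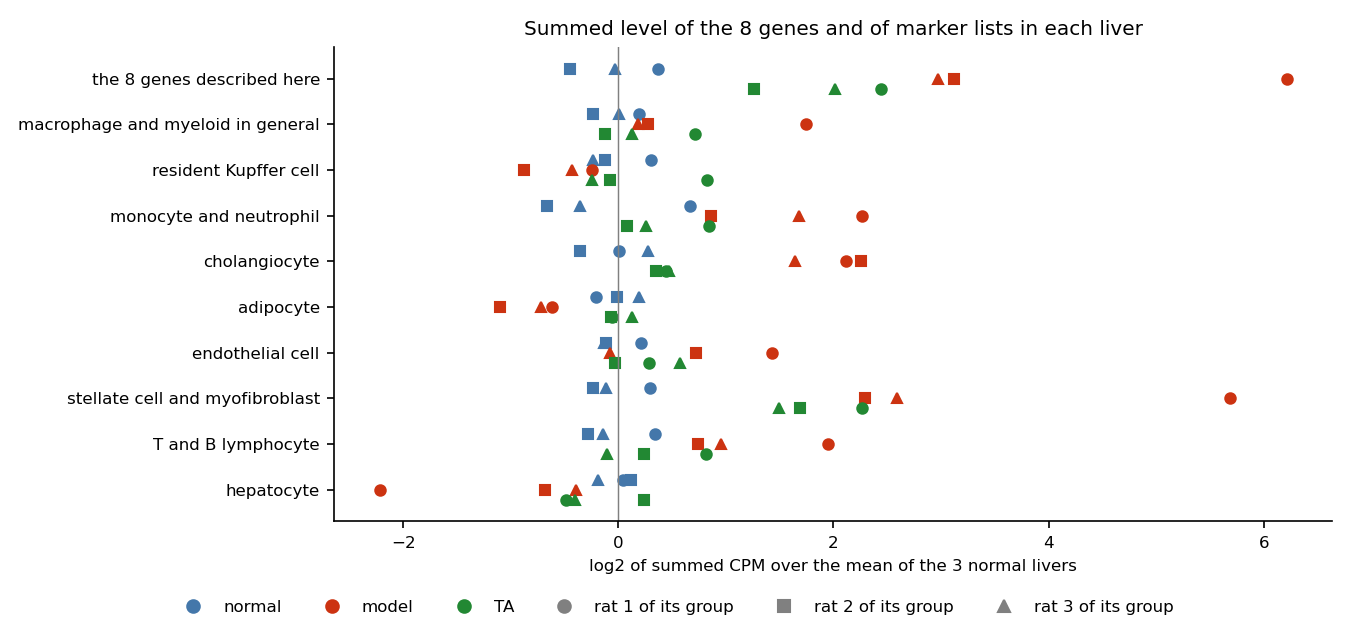
Summed CPM of the 8 genes and of 9 marker lists (y axis) in each liver, as the log2 ratio to the mean of the 3 normal control livers (x axis), with colour for the group and shape for the rat. The 8 genes and the stellate cell markers are high in all model and TA livers, the general macrophage sum is highest in the first model rat and above all normal livers also in the second model rat and the first TA rat, and the adipocyte sum is below them in all 3 model livers.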

How the data were processed

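The authors made paired-end polyA libraries, trimmed the reads with Trimmomatic and Cutadapt, mapped them with STAR and counted them with HTSeq-count. As reference, a human genome is named in the paper and a mouse build in the submitters' processing notes, while the deposited symbols are rat symbols, so RefSeq tables of GRCr8 were used for names and promoters alone (15601 of 17156 names matched, 90.9%). The strand setting of the counting was not given in the sources used here. The authors deposited raw counts per gene, which every test here used. Of the deposited FPKM values, used for levels between genes, and the deposited signal, counts over DESeq2 size factors, the latter was not used. The deposited log2 fold changes and p-values come from comparisons of the authors and were not used.

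Genes were tested with edgeR 4.0.16 (R 4.3.3), with TMM, its filter on low counts and its quasi-likelihood F test on the livers of the 2 groups compared, adjusted over all genes by Benjamini-Hochberg. TA VS Normal used the 16730 genes in both tables. Standard errors are the fold change over the root of F. DESeq2 1.42.0 and limma 3.58.1 (voom) were alternatives. Exact permutation tests were run over the 20 arrangements of 3 against 3 livers and were 2-sided. Replicate numbers were checked for pairing by the correlation of deviations from group means. Same-numbered livers gave 0.26 to 0.50 in TA VS Normal, -0.06 to 0.21 in Model VS Normal and -0.04 to 0.22 in TA VS Model. The main fits and the exact permutation tests did not use the numbers in any comparison. The replicate block was an alternative fit only. The labels do not say what a number marks, and p-values measure the spread between these libraries.

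Genes named are the 8 members, the 3 genes nearest to each in profile (mean log2 CPM of at least 2, with 1 not reported here), and of each list up to 2 risen and 2 fallen with the largest change. Vav1, Inpp5d, Syk, Apoe, Plin2, Cxcl16, Apoc3, Angptl4, Cd44, Mmp2, Fabp1, Csf1r, Cfd and Retn were named after their values were seen. The members and lists were chosen with earlier results of these data known. Alternatives were other scalings, filters, tools and fits, the replicate block and leaving out each liver, with list counts without the first model rat added after seeing the data. Intervals for a count of 0 (3 counts) cover counting error only.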

Additional observations from a re-analysis of the deposited data

How the results depend on the processing

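Of the values of single genes under the alternatives, 1 reversed its direction, that of Cd68 in TA VS Model without the first model rat (0.0012, against a lowest value of -1.93 when another liver was left out). The median log2 fold change of the 8 genes in Model VS Normal was 3.69 under limma voom with quality weights, which weighs down livers that stand apart, and 3.57 to 5.98 when 1 liver was left out. The number of the 8 with an adjusted p under 0.05, a description since 3 were picked for this change and Trem2 passed the filter only through the model livers, was 0 to 8 when 1 liver was left out. In TA VS Model the median was -1.46 under limma voom and -3.51 to -1.13 when 1 liver was left out, and the number called was 3 under DESeq2 and 1 under limma voom. In TA VS Normal the median was 1.69 to 2.51 when 1 liver was left out and the number called 0 to 2. It was 2 with library totals, 2 with no filter on low counts, 2 with the newer quasi-likelihood form, 5 under DESeq2, 4 under limma voom, and 0 with all 9 livers in 1 fit. DESeq2 gave no adjusted p to 3 of the 8 in both comparisons with the model group. Apart from what is stated here, the cause was not tested.

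The replicate block raised the number called in TA VS Normal from 1 to 5 (median 2.12). In Model VS Normal, where the correlation of same-numbered livers was -0.06 to 0.21, it gave a median of 4.66 and 6 genes called. In TA VS Model it gave -2.02 and 0. Over all genes, adjusted calls in Model VS Normal were 873 higher and 129 lower, against 1918 and 62 with library totals, 1802 and 852 under DESeq2, 1972 and 1461 under limma voom, and 1388 and 369 with all livers in 1 fit. They were 0 and 0 without the second or the third normal control rat and 46 and 5 without the first. In TA VS Normal they were 28 and 4, against 51 and 5 with library totals, 63 and 13 with no filter, 283 and 77 under DESeq2, 100 and 26 under limma voom and 12 and 2 with all livers in 1 fit. Depth limits Trem2 most, at 0 to 7 reads per normal control liver.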
